A study of Homo sapiens with 6 samples.

Results

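Genes of mitochondrial translation, the respiratory chain and mitochondrial protein import were compared between HCC827, a lung adenocarcinoma line, and HCC827_Er. Both come from a series on resistance to inhibitors of the EGFR kinase. The set was taken by gene symbol from the deposited table: every listed protein-coding gene whose symbol starts with MRPL, MRPS, NDUF, COX and a digit, UQCR, SDHA to SDHD, ATP5, TIMM or TOMM, and in addition MT-RNR1, without MRPL45 and MRPS17. This gave 27 genes of 6641 listed. They were MT-RNR1, 8 proteins of the mitochondrial ribosome, 3 of complex I, 3 of complex II, 4 of complex IV, 5 of ATP synthase and 3 of the import machinery of the inner membrane. GENCODE 29 holds 213 protein-coding genes that meet the same rule, of which 26 were in the table, with no UQCR or TOMM gene among them. There were 2 groups, with 3 libraries each. HCC827 is an established human lung adenocarcinoma line that carries an activating EGFR mutation and is labelled as non-small cell lung cancer; HCC827_Er is a second line labelled with the same cell type, in a series that sets a parental line against a resistant one. The stated question was how crotonylation of histone lysines acts on gene expression in resistance to inhibitors of the EGFR kinase. No treatment, dose or time is given in the labels for either line, and the labels do not say whether HCC827_Er is a single clone or a pool. The protocol speaks of RNA from tissue samples although both groups are labelled as cell lines, and the labels do not say if replicates are separate cultures. The p-values therefore reflect spread among these libraries alone, which may be technical.

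Mitochondria carry a small genome of their own, which encodes a few core subunits of the respiratory chain together with the ribosomal RNAs and transfer RNAs needed to translate them. All proteins of the mitochondrial ribosome, and most subunits of the respiratory complexes, are encoded in the nucleus, made in the cytosol and imported through translocases of the outer (TOM) and inner (TIM) membranes. Complexes I and II pass electrons to ubiquinone, complex IV passes them to oxygen, and ATP synthase uses the proton gradient built by complexes I, III and IV to make ATP. Many of these nuclear genes have promoters with sites for NRF1, for ETS factors such as GABP, and for YY1, and the coactivator PGC-1alpha (PPARGC1A) is known to raise their transcription.

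RefSeq promoters (GRCh38.p14, windows of equal length that span a start site and lie mostly upstream of it) were found by symbol for 18 of the 27 genes, 21 promoters in all because MRPL34 had 4. The core motifs of NRF1 (GCATGCGC), of ETS factors (CCGGAAG) and of YY1 (AAGATGGCG) were searched on both strands. The NRF1 motif was in 3 of the 21 promoters (14.3%, against 3.05% of all 35116 promoters of this length), the ETS motif in 6 (28.6% against 10.3%) and the YY1 motif in 4 (19.0% against 1.75%). At least 1 motif was in 9 promoters (42.9%, against 4915 of the 35116). In the ATP5MK promoter 2 ETS matches on opposite strands overlapped. The median GC content was 65.3% in the promoters of the set and 58.7% in all promoters. All 9 genes with a motif had lower values in HCC827_Er, out of 14 lower genes with a promoter, and none of the 4 higher genes had one. Among all protein-coding genes tested, 23.4% of the lower and 18.9% of the higher genes with a promoter held a motif. A match describes the letters only, and no match says nothing about the factor.

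The sequences given here, 5′ to 3′ with motif matches in capitals, are the promoter of SDHB, which alone held all 3 motifs, those of COX4I1 and MRPS24, the protein-coding genes of the set with the largest falls, and that of TIMM8A, the gene with the largest rise, which held none. The SDHB window is chr1:17053983-17054282 on the minus strand, with the NRF1 motif, then the ETS motif and then the YY1 motif, the last starting 10 bases after the start site. The COX4I1 window is chr16:85799445-85799744 on the plus strand, with an ETS motif in reverse complement starting 2 bases after the start site. The MRPS24 window is chr7:43869468-43869767 on the minus strand, with a YY1 motif starting 19 bases after the start site. The TIMM8A window is chrX:101348693-101348992 on the minus strand. No match overlapped another in these promoters.
SDHB: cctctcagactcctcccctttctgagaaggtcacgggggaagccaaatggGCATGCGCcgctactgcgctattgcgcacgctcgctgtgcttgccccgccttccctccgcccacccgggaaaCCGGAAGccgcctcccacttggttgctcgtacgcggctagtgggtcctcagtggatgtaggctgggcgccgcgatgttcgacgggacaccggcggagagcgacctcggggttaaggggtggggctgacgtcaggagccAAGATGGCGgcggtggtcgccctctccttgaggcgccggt
COX4I1: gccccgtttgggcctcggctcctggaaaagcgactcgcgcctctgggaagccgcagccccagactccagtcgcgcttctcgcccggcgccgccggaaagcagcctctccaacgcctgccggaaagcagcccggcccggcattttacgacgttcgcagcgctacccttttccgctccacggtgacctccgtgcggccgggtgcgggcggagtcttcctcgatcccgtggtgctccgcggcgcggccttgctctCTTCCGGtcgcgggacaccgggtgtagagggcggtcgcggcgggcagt
MRPS24: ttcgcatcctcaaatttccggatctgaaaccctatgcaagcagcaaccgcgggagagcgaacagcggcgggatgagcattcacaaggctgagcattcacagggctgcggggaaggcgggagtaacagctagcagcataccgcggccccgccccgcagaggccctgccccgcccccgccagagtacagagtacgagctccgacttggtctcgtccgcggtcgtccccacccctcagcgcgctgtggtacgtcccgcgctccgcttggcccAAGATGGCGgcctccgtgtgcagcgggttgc
TIMM8A: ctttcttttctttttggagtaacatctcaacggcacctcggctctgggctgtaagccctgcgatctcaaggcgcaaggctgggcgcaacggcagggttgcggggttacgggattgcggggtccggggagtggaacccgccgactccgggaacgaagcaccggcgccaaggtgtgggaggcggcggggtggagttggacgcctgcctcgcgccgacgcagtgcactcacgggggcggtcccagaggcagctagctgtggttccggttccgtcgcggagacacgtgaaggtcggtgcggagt

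The deposited values were FPKM, fragment counts scaled to transcript length and library size, and the sequencing depth behind them is unknown. Library sums over the table ran from 184633 to 224211 FPKM, and no library stood apart from the others of its line. The table holds few genes with equal levels in both lines: of 2362 tested genes with a mean of at least 10 FPKM, 16 had a ratio of means within 0.4 of equal on the log2 scale. How genes were selected for the table is not given in the sources used here. With nearly all tested genes different between the lines, the direction and size of a difference are described, and the fact that a listed gene differed is not read as a result. Of 6 fixed epithelial markers 4 were listed and did not share a direction: EPCAM (30.1 to 297 FPKM), KRT19 (387 to 1084 FPKM) and CDH1 (60.7 to 161 FPKM) were called higher in HCC827_Er, and KRT8, the most abundant, was lower (1744 to 1025 FPKM). Their sums were 2162 to 2257 FPKM in HCC827 and 2518 to 2601 FPKM in HCC827_Er. All 4 lung lineage markers were called higher, with sums of 36.7 to 38.7 and 673 to 764 FPKM. Of 7 leukocyte markers 5 were listed, with sums of 172 to 179 and 131 to 144 FPKM that were mostly CD68, which was lower (174 to 117 FPKM). The other 4, CORO1A, LAPTM5, CD14 and CSF1R, were called higher. Their means were at most 0.903 FPKM in HCC827 and between 1.73 and 7.66 FPKM in HCC827_Er. PTPRC and CD3E were not listed under those symbols. Of 6 fibroblast markers 3 were listed, with sums of 2.46 to 3.35 and 9.33 to 11.5 FPKM. COL1A1 carried that difference (0.750 to 10.1 FPKM, called higher), LUM was lower (1.81 to 0.530 FPKM), and COL3A1 was at 0 in every HCC827_Er library. Of 4 endothelial markers 2 were listed, with sums of at most 9.57 and 7.78 FPKM and with CDH5 at 0 in every HCC827 library. The part of these differences in the results was not tested.

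Most genes of the set were lower in HCC827_Er. Leaving MT-RNR1 aside, the other 26 genes summed to 6692, 6674 and 6615 FPKM in the HCC827 libraries and to 4108, 3921 and 3960 FPKM in the HCC827_Er libraries, which is 2.95% to 3.00% and 2.06% to 2.22% of the listed sums. The groups of libraries did not overlap. All 27 genes passed the filter on low values, an FPKM of at least 1 in 3 or more libraries. Of them 23 (85.2%) were lower and 4 (14.8%) were higher at a limma adjusted p under 0.05, against 47.7% and 50.6% of the 5276 tested genes. Few reached a 2-fold change: at that adjusted p and an absolute difference of at least 1 on the log2(FPKM + 1) scale, named "called" from here on, MT-RNR1, COX4I1 and MRPS24 were called lower (11.1% of the set, against 19.7% of all tested genes) and TIMM8A was called higher (3.7% against 24.7%). For 26 of the 27 genes (96.3%) no HCC827 value fell within the range of the HCC827_Er values or the reverse, a share near the 97.1% of all tested genes. The median log2 difference of the set was -0.65, and that of all tested genes was 0.43. The second value depended on genes of low level: with a minimum of 5 FPKM in 3 or more libraries it was -0.42, while that of the set stayed at -0.65. Other tested genes with a mean of 50 to 100 FPKM had a median of -0.64, and those at 100 FPKM or more had one of -0.59, both close to the set. With few genes near 0, such a median takes a value on one side or the other of an almost empty band.

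The number called depended on how the libraries were scaled. Median-ratio rescaling moves HCC827_Er against HCC827 by -0.34 on the log2 scale. With it 12 genes of the set were called lower and none higher, beside 1657 and 896 of all 5276 tested genes. Rescaling of the listed sums is a shift of 0.25. With it none was called lower and TIMM8A and COX16 were called higher, beside 794 and 1825 of all tested genes. With quantile normalization TIMM8A alone was called, beside 1159 tested genes higher and 1210 lower. The calls of all tested genes thus moved as well. Direction depended less on scaling. The same 23 genes were lower with the first and the second. With quantile normalization all of them were but COX6A1, which stood at 0.07, and MT-RNR1, which stood at 0. MRPL36 and TIMM50 did not pass the adjusted p with the second, nor did MRPL36, TIMM50, COX6A1 and MT-RNR1 with quantile normalization.

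**Figure D1:**
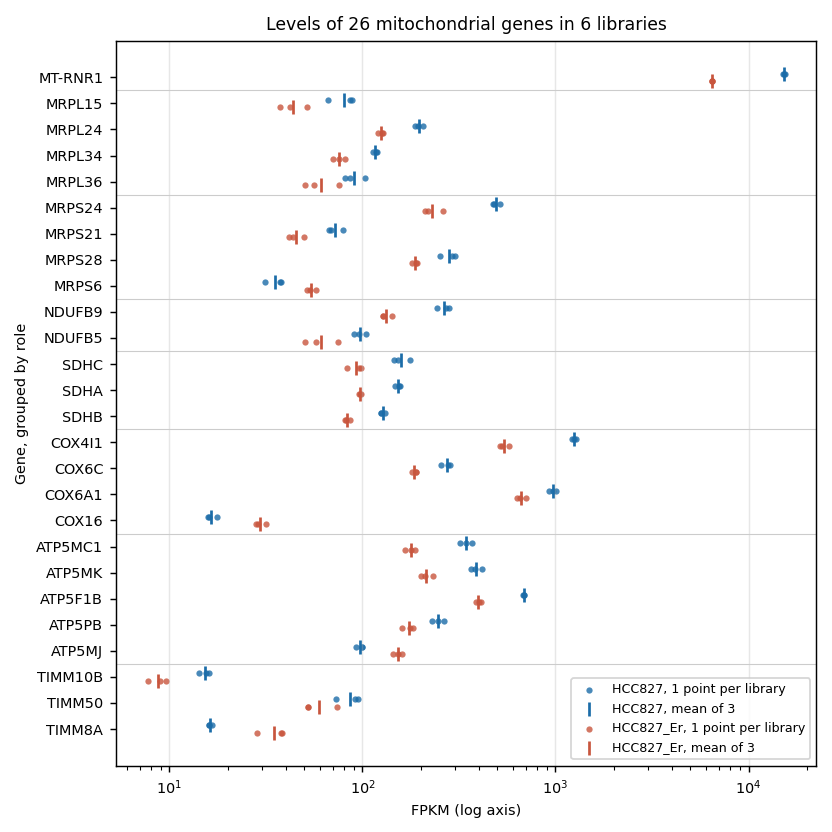
FPKM (log axis) of 26 of the 27 genes in each library, grouped by role; points are libraries, vertical marks the mean of 3. The HCC827_Er points lie left of the HCC827 points for all genes drawn but MRPS6, COX16, ATP5MJ and TIMM8A, which lie right, and TIMM50, whose points overlap.

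MT-RNR1 encodes the ribosomal RNA of the small subunit of the mitochondrial ribosome and is the only gene of the set that the mitochondrial genome carries (GENCODE 29, chromosome M, 648 to 1601, plus strand; ENSG00000211459). It stood at 15026, 15260 and 15372 FPKM in HCC827 and at 6460, 6505 and 6481 FPKM in HCC827_Er. It was thus the second most abundant listed gene in each of the 6 libraries, with 6.74% to 6.86% of the listed sum in HCC827 and 3.41% to 3.50% in HCC827_Er. MT-RNR1 fell 2.35-fold, from 15219 ± 176 to 6482 ± 22.4 FPKM (SD, n = 3; log2 difference -1.23, SE 0.036, limma adjusted p = 1.01e-08). The difference was -1.57 with median-ratio and -0.98 with sum rescaling, where it was no longer called. As a gene of equal rank in all libraries it is set to no difference by quantile normalization. None of the other 14 mitochondrially encoded genes of the fixed list was listed in the table under its symbol. How ribosomal RNA was treated in library preparation beyond the name of the kit is not given in the sources used here.

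The 4 proteins of the large mitoribosomal subunit (MRPL genes) in the set were lower in HCC827_Er by similar amounts. Their log2 differences ran from -0.87 to -0.57, and none was called. MRPL45, also of this subunit and listed but left out by the rule, was called lower at -2.47. MRPL15 stood at 86.3, 88.2 and 66.6 FPKM in HCC827 and at 42.3, 37.2 and 51.5 FPKM in HCC827_Er. Its libraries did not overlap, and its difference of -0.87 (SE 0.14, limma adjusted p = 2.67e-04) was the largest of the 4. MRPL24 was the most abundant, at 187, 205 and 194 FPKM against 126, 120 and 128 FPKM. Its difference was -0.64 (SE 0.054). MRPL34 stood at 116 ± 2.40 against 75.6 ± 5.09 FPKM (SD, n = 3). MRPL36 stood at 103, 81.5 and 85.7 FPKM against 75.7, 50.5 and 56.1 FPKM. The highest HCC827_Er library lay close to the lowest HCC827 library, without overlap.

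The 4 proteins of the small subunit (MRPS genes) did not share a direction. MRPS24 (chromosome 7, 43866558 to 43869893, minus strand; ENSG00000062582) stood at 519, 474 and 480 FPKM in HCC827 and at 261, 218 and 211 FPKM in HCC827_Er. Every HCC827 library lay above every HCC827_Er library, and MRPS24 fell 2.14-fold (log2 difference -1.10, SE 0.082, limma adjusted p = 2.45e-06). It was not called with sum rescaling (-0.85) or quantile normalization (-0.84). The readthrough gene URGCP-MRPS24 covers the whole of it on the same strand. MRPS28 and MRPS21 were lower without being called, at 282 ± 26.3 against 187 ± 5.60 FPKM and at 71.8 ± 6.53 against 45.1 ± 4.16 FPKM (SD, n = 3). MRPS6 was the only mitoribosomal gene of the 8 with a higher level in HCC827_Er, at 31.3, 37.2 and 37.8 FPKM against 53.4, 57.5 and 51.8 FPKM (log2 difference 0.60, SE 0.085, limma adjusted p = 1.26e-04). The level of MRPS6 relative to MRPS24 was 0.0604 to 0.0787 in HCC827 and 0.204 to 0.264 in HCC827_Er. Multiplying each library by a factor leaves this ratio unchanged, whereas quantile normalization can change it. MRPS6 shares its locus and strand with SLC5A3, a myo-inositol transporter gene, which rose from 2.30 ± 0.200 to 7.21 ± 0.610 FPKM (SD, n = 3; log2 difference 1.31, limma adjusted p = 5.76e-06), so reads of the 2 genes may not be fully told apart.

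Complex I, which oxidises NADH, was represented by 3 subunits and all were lower in HCC827_Er, with none called. NDUFB9, a subunit of the membrane arm, stood at 281, 271 and 243 FPKM in HCC827 and at 142, 128 and 128 FPKM in HCC827_Er. At -0.99 (SE 0.070, limma adjusted p = 1.62e-06), NDUFB9 lay just under the 2-fold minimum; it was called with median-ratio rescaling (-1.33), without HCC827 replicate 3 (-1.05) and without HCC827_Er replicate 1 (-1.04). NDUFB5, also of the membrane arm, stood at 90.2, 104 and 96.4 FPKM against 57.6, 50.2 and 75.1 FPKM, and the third HCC827_Er library was the highest of its line.

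The subunits of complex II, succinate dehydrogenase, were lower in nearly the same proportion. SDHA, the flavoprotein that oxidises succinate, stood at 154, 147 and 157 FPKM in HCC827 and at 96.9, 95.9 and 97.9 FPKM in HCC827_Er (log2 difference -0.65, SE 0.049, limma adjusted p = 2.42e-06). SDHB, the iron-sulphur subunit, stood at 127 ± 3.72 against 83.0 ± 2.50 FPKM, a difference of -0.61 (SE 0.052). SDHC, a membrane anchor and the most variable of these genes in HCC827, stood at 152, 146 and 176 FPKM against 83.0, 96.3 and 98.8 FPKM, a difference of -0.76 (SE 0.090). The ratio of SDHA to SDHB was 1.12 to 1.25 in HCC827 and 1.12 to 1.19 in HCC827_Er, and that of SDHA to SDHC was 0.888 to 1.01 and 0.991 to 1.17. Both ranges overlapped between the lines.

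Genes of complex IV, cytochrome c oxidase, differed from each other. COX4I1 encodes a nuclear subunit that takes part in regulating the enzyme (chromosome 16, 85798633 to 85807044, plus strand; ENSG00000131143). COX4I1 stood at 1270, 1251 and 1212 FPKM in HCC827 and at 575, 526 and 518 FPKM in HCC827_Er. It fell 2.31-fold, from 1244 ± 29.7 to 540 ± 30.8 FPKM (SD, n = 3; log2 difference -1.21, SE 0.051, limma adjusted p = 7.76e-08), and was not called with sum rescaling (-0.96) or quantile normalization (-0.74). The small subunits COX6A1 and COX6C were lower by less, at 972, 920 and 1006 against 705, 629 and 655 FPKM and at 277, 286 and 255 against 189, 189 and 180 FPKM. Their log2 differences were -0.54 (SE 0.056) and -0.55 (SE 0.056), and the first was 0.07 with quantile normalization. Consequently the level of COX6A1 relative to COX4I1 went from 0.736 to 0.830 in the HCC827 libraries to between 1.20 and 1.27 in the HCC827_Er libraries. The level of COX6C relative to COX6A1 was 0.253 to 0.310 and 0.268 to 0.300, ranges that overlapped. COX16, an assembly factor needed for the copper-binding subunit of the enzyme, stood the other way, at 17.7, 15.9 and 15.8 FPKM against 31.5, 28.1 and 28.6 FPKM (log2 difference 0.80, SE 0.080, limma adjusted p = 1.59e-05). It was called with sum rescaling alone (1.03). GENCODE 29 also lists a readthrough gene, SYNJ2BP-COX16, over most of COX16 on the same strand.

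Of the 5 genes of ATP synthase, 4 were lower and none was called. ATP5F1B, the catalytic beta subunit and the most abundant of them, stood at 677, 691 and 689 FPKM in HCC827 and at 409, 400 and 385 FPKM in HCC827_Er (log2 difference -0.78, SE 0.042, limma adjusted p = 3.16e-07). ATP5MC1, which encodes subunit c of the rotating membrane ring, stood at 345, 367 and 320 FPKM against 179, 167 and 188 FPKM and had the largest difference, -0.95 (SE 0.066). ATP5MK, a small subunit of the membrane part, stood at 388 ± 25.6 against 215 ± 15.7 FPKM (SD, n = 3), a difference of -0.85 (SE 0.069). ATP5PB, of the peripheral stalk, differed least, at 247 ± 18.4 against 173 ± 11.3 FPKM (log2 difference -0.51, SE 0.070). ATP5MJ, another small membrane subunit, stood at 99.9, 92.7 and 99.2 FPKM in HCC827 and at 145, 153 and 160 FPKM in HCC827_Er (log2 difference 0.65, SE 0.058, limma adjusted p = 7.91e-06). The level of ATP5MJ relative to ATP5F1B was 0.134 to 0.148 in HCC827 and 0.353 to 0.416 in HCC827_Er. That of ATP5MC1 relative to ATP5F1B was 0.465 to 0.532 and 0.418 to 0.488, so the ranges overlapped.

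The 3 import genes held the largest rise of the set. TIMM8A (chromosome X, 101345659 to 101349196, minus strand; ENSG00000126953) encodes a small chaperone of the space between the membranes that guides hydrophobic proteins to the inner membrane. TIMM8A stood at 15.97, 16.1 and 16.6 FPKM in HCC827 and at 28.3, 38.4 and 37.8 FPKM in HCC827_Er. It rose 2.15-fold, from 16.2 ± 0.327 to 34.8 ± 5.63 FPKM (SD, n = 3; log2 difference 1.04, SE 0.11, limma adjusted p = 2.64e-05). The call was lost without HCC827_Er replicate 2 (0.97) or replicate 3 (0.98), with a pseudocount of 5 (0.90) and with median-ratio rescaling (0.71). TIMM10B, a small Tim protein of the carrier translocase TIM22, was lower at 15.2 ± 0.933 against 8.75 ± 0.965 FPKM, a difference of -0.74 (SE 0.10). The level of TIMM8A relative to TIMM10B was 1.01 to 1.13 in HCC827 and 2.94 to 4.97 in HCC827_Er. TIMM50, the presequence receptor of the TIM23 translocase, stood at 91.7, 94.8 and 72.8 FPKM against 73.5, 51.9 and 52.1 FPKM. It was the only gene of the set whose libraries overlapped between the lines (log2 difference -0.55, SE 0.15, limma adjusted p = 0.00589).

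**Figure D2:**
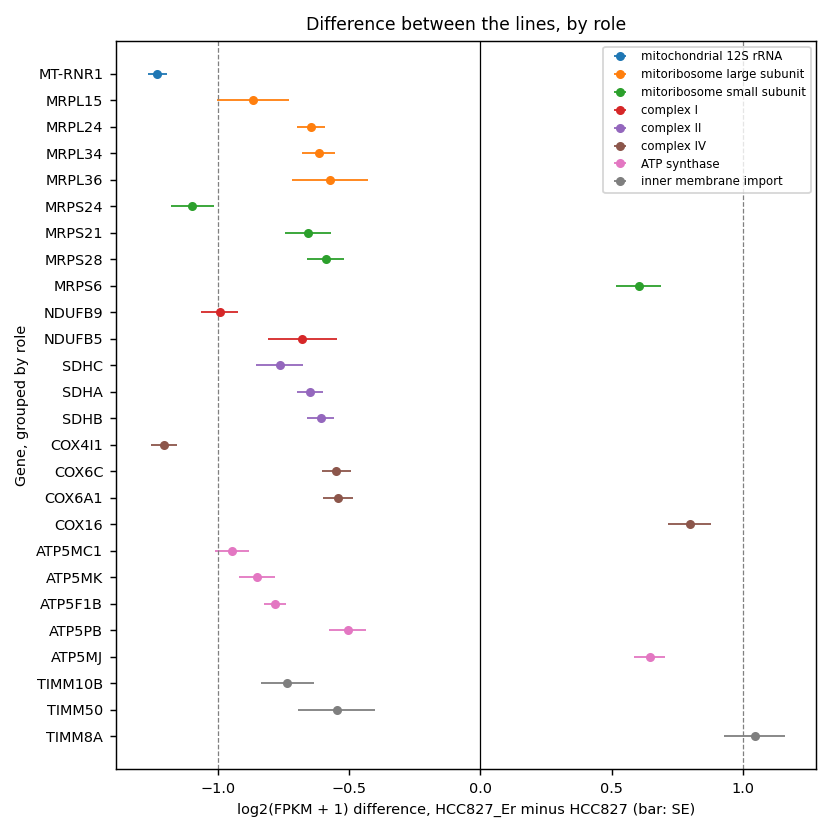
Difference in log2(FPKM + 1) between HCC827_Er and HCC827 for 26 of the 27 genes, coloured by role, with bars for the SE of the fit and dashed lines at a 2-fold change. MT-RNR1, COX4I1 and MRPS24 lie beyond the left line and TIMM8A beyond the right line, and MRPS6, COX16 and ATP5MJ are the other genes right of 0.

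Spread within a line was small for most genes. The SD was between 1.09% and 14.9% of the mean in HCC827 (median 6.14%) and between 0.346% and 21.8% in HCC827_Er (median 6.21%). MRPL36, NDUFB5 and TIMM50 had the widest spread in HCC827_Er, at 21.8%, 21.0% and 21.0% of their means, and MRPL15 the widest in HCC827. No library of a line was high or low throughout: a given library held the highest value of its line for 7 to 12 of the 27 genes, and its median deviation from the line mean over the set was at most 0.025 on the log2 scale in either direction.

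The direction in the set went with abundance, as it did among the other tested genes to a lesser degree. Of the 16 genes with a mean of 100 FPKM or more over the 6 libraries 15 were lower (93.8%), with ATP5MJ the exception, while 59.7% of 305 other tested genes at that level had a negative difference. All 7 genes of the set between 50 and 100 FPKM were lower, against 67.2% of 338 others. Of the 4 between 10 and 50 FPKM, TIMM10B was lower and MRPS6, COX16 and TIMM8A were higher, and 50.7% of 1692 others were negative. These shares are descriptions, with no test of the difference. Transcripts of the set were short, with a median longest transcript of 1471.5 bases in GENCODE 29 for the 26 protein-coding genes against 3400.5 bases for 4392 tested protein-coding genes, and FPKM is divided by length. Processed copies could also share reads: 17 pseudogenes carry the name of COX6C, 8 that of MRPS21 and 7 each those of ATP5MC1 and ATP5PB.

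**Figure D3:**
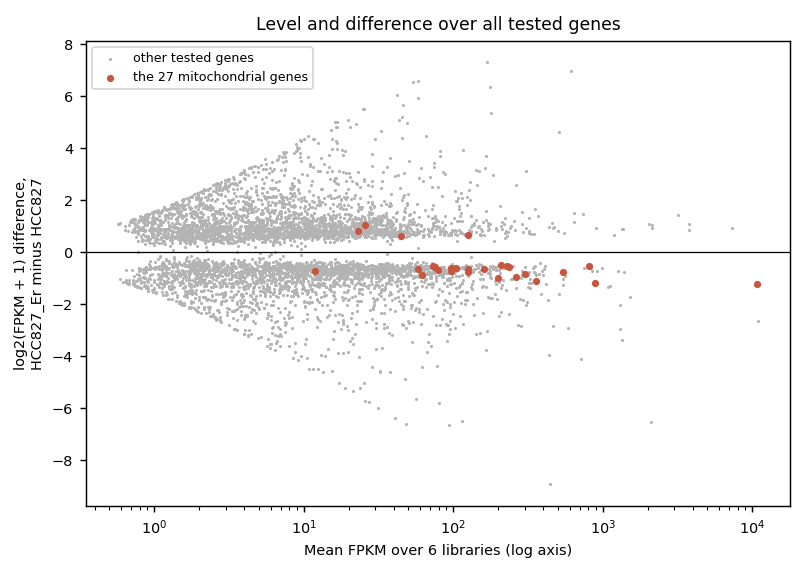
Difference in log2(FPKM + 1) against the mean FPKM over 6 libraries (log axis) for all 5276 tested genes (grey) and the 27 genes of the set (red). The empty band around 0 shows that near-equal genes are few in the table, and 22 of the 23 red points at a mean of 50 FPKM or more lie below 0.

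Position was described next, using the other tested genes within 5 Mb on either side of each gene. The 3 higher genes on chromosomes 14 and X lay among genes that were mostly higher themselves. For COX16 3 of 35 neighbours had a negative difference (median 0.77), for ATP5MJ 4 of 37 (median 0.77) and for TIMM8A 1 of 26 (median 0.99). The difference of each of these genes, 0.80, 0.65 and 1.04, was close to that median. For MRPS6 on chromosome 21, 5 of 10 neighbours were negative. Over whole chromosomes the other tested genes had a median of 0.84 on chromosome 14 (253 genes), 0.86 on chromosome X (269 genes) and 0.77 on chromosome 21 (46 genes), the direction of the 4 higher genes.

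Among lower genes, COX4I1 on chromosome 16 had 53 of 58 neighbours with a negative difference (median -0.73), and ATP5MC1 on chromosome 17 had 30 of 40 (median -0.75). The set included 4 genes of chromosome 8. On it MRPS28 had 13 of 14 negative neighbours and COX6C 20 of 24, while NDUFB9 had 9 of 17. In contrast TIMM50 and MRPL34 on chromosome 19 lay among genes that were mostly higher, with 19 of 53 and 17 of 59 neighbours negative, as did NDUFB5 on chromosome 3 with 4 of 12 and TIMM10B on chromosome 11 with 9 of 23. Chromosome 1 held 6 genes of the set, with log2 differences from -0.76 to -0.51. Of these, MRPL24 had 33 of 68 negative neighbours (median 0.56) and MRPS21 had 30 of 65 (median 0.69), while the other 4 had negative medians. Over whole chromosomes the other tested genes had negative medians on chromosomes 1, 3, 7, 8, 10, 11, 12 and 16, as did the genes of the set there, and positive ones on chromosomes 5 (0.53), 17 (0.57) and 19 (0.66), where the 5 genes of the set were lower. Genes that overlap a gene of the set and were listed had a difference of the same sign: EMC8 beside COX4I1 (40.3 ± 1.51 against 24.5 ± 3.54 FPKM), TATDN1 beside NDUFB9 (39.7 ± 3.42 against 21.5 ± 0.876 FPKM), and MTSS1, VPS13B and SLC5A3. Whether reads were counted by strand is not given in the sources used here, so antisense reads in these overlaps cannot be told apart.

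**Figure D4:**
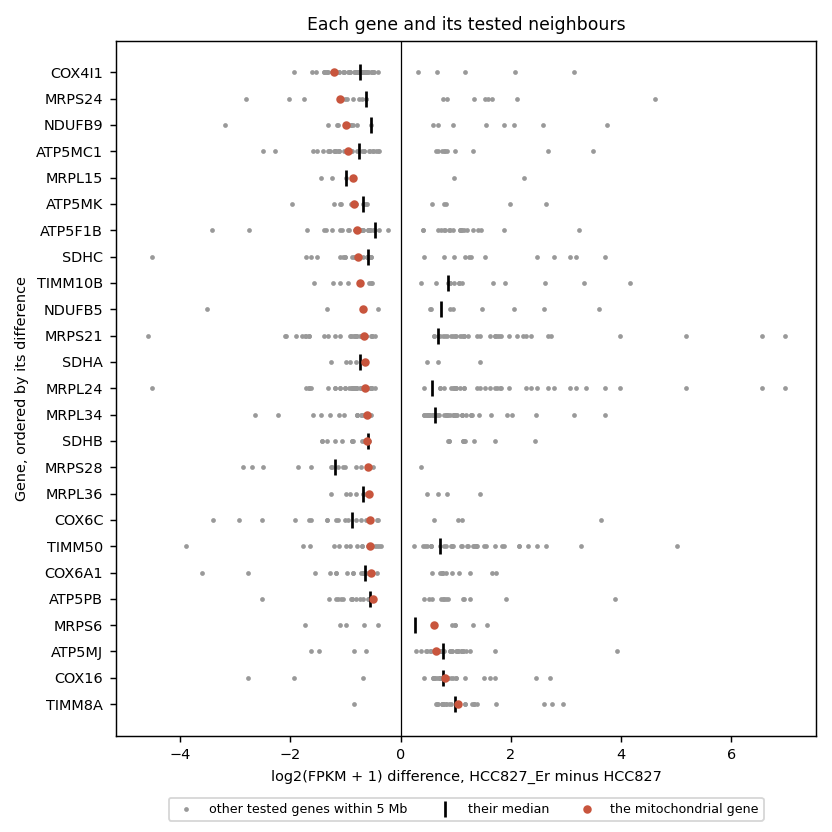
For 25 genes of the set with tested neighbours, the gene's difference in log2(FPKM + 1) (red), those of the other tested genes within 5 Mb (grey) and their median (black mark). COX16, ATP5MJ and TIMM8A sit close to positive medians, whereas TIMM50, MRPL34, MRPL24, MRPS21, NDUFB5 and TIMM10B are negative beside positive medians.

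Other genes of mitochondrial function came from 8 lists, with 41 genes tested. Of these, 1 was called higher and 2 were called lower, against 24.7% and 19.7% of all tested genes. A negative difference was found for 34 (82.9%), against 48.6% of all tested genes. That second share went with abundance. Outside the set it was 44.2% at a mean of 1 to 10 FPKM and between 50.7% and 67.2% in the bands above. Most of the 41 genes had a mean above 10 FPKM. No sign changed with median-ratio or sum rescaling or quantile normalization. Position was not described for these 41 genes, and its part in their direction was not tested. With median-ratio rescaling 1 of the 41 was called higher and 14 lower, beside 896 and 1657 of all 5276 tested genes, and with sum rescaling 3 were called higher and 2 lower, beside 1825 and 794. The largest fall was in PPARGC1A, which encodes PGC-1alpha, the coactivator that drives mitochondrial biogenesis. PPARGC1A stood at 7.14, 5.62 and 8.55 FPKM in HCC827 and was listed at 0, 0 and 0.02 FPKM in HCC827_Er (log2(FPKM + 1) difference -2.99, SE 0.14, limma adjusted p = 1.62e-07). No fold is given against values listed at 0, and the size depends on the pseudocount, with -6.06 at 0.1 and -1.27 at 5. So does its rank: at a pseudocount of 5 the fall of the pyruvate carrier gene MPC2 was larger (-1.94). MYC, a transcription factor that also acts on genes of ribosomes and mitochondria, stood at 413 ± 9.35 against 222 ± 3.69 FPKM (log2 difference -0.90), and the corepressor NRIP1, which opposes oxidative gene programmes in several tissues, at 17.9 ± 2.33 against 34.1 ± 1.55 FPKM (log2 difference 0.90). These were the 3 tested of 16 regulators.

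Pyruvate entry into mitochondria held both other called genes. MPC2, a subunit of the mitochondrial pyruvate carrier, stood at 85.5, 87.5 and 82.7 FPKM in HCC827 and at 17.8, 18.8 and 19.1 FPKM in HCC827_Er (log2 difference -2.14, SE 0.061, limma adjusted p = 8.82e-09). PDK3, a kinase that inactivates the pyruvate dehydrogenase complex, stood at 2.23, 1.81 and 2.20 FPKM against 9.57, 10.2 and 9.87 FPKM (log2 difference 1.82, SE 0.11, limma adjusted p = 5.57e-07). Thus MPC2 fell and PDK3 rose, and both stayed called in each alternative run, with PDK3 at 1.07 with a pseudocount of 5. The other 5 tested genes of the tricarboxylic acid cycle and pyruvate list, among them DLD and PDHX, had log2 differences between -0.68 and -0.45 and were not called.

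Genes that keep, copy and read the mitochondrial genome were lower in 8 of 9 cases, with none called. POLRMT, the mitochondrial RNA polymerase, stood at 53.6 ± 3.85 against 33.5 ± 3.62 FPKM (SD, n = 3), its partner TFB2M at 31.6 ± 2.06 against 20.3 ± 1.49 FPKM, and the replicative helicase TWNK at 33.3 ± 2.36 against 18.5 ± 0.678 FPKM. RRM2B, a ribonucleotide reductase subunit that supplies nucleotides for mitochondrial DNA, had the largest difference of this list (-0.96), and PRORP, the nuclease of mitochondrial RNase P, was higher at 12.9 ± 0.490 against 25.6 ± 0.560 FPKM. Of the 5 tested genes on the list of translation factors and synthetases, which also holds COA3, 4 were lower. The elongation factor TSFM led them (78.8 ± 8.72 against 47.6 ± 9.23 FPKM), and VARS2 was higher. Of the 4 mitoribosome assembly genes DDX28, MTG1 and MTERF3 were lower and DHX30 higher. Of the 8 further respiratory chain genes 6 were lower, including the complex III subunit CYC1 (155 ± 9.25 against 89.2 ± 10.1 FPKM) and FMC1, with the largest difference (-0.94), while NUBPL and ATPAF2 were higher. All 5 tested import partners, proteases and cristae genes were lower, with differences from -0.70 for MICOS10 to -0.51 for CHCHD4. None of the genes named in these 5 lists was called as deposited.

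**Figure D5:**
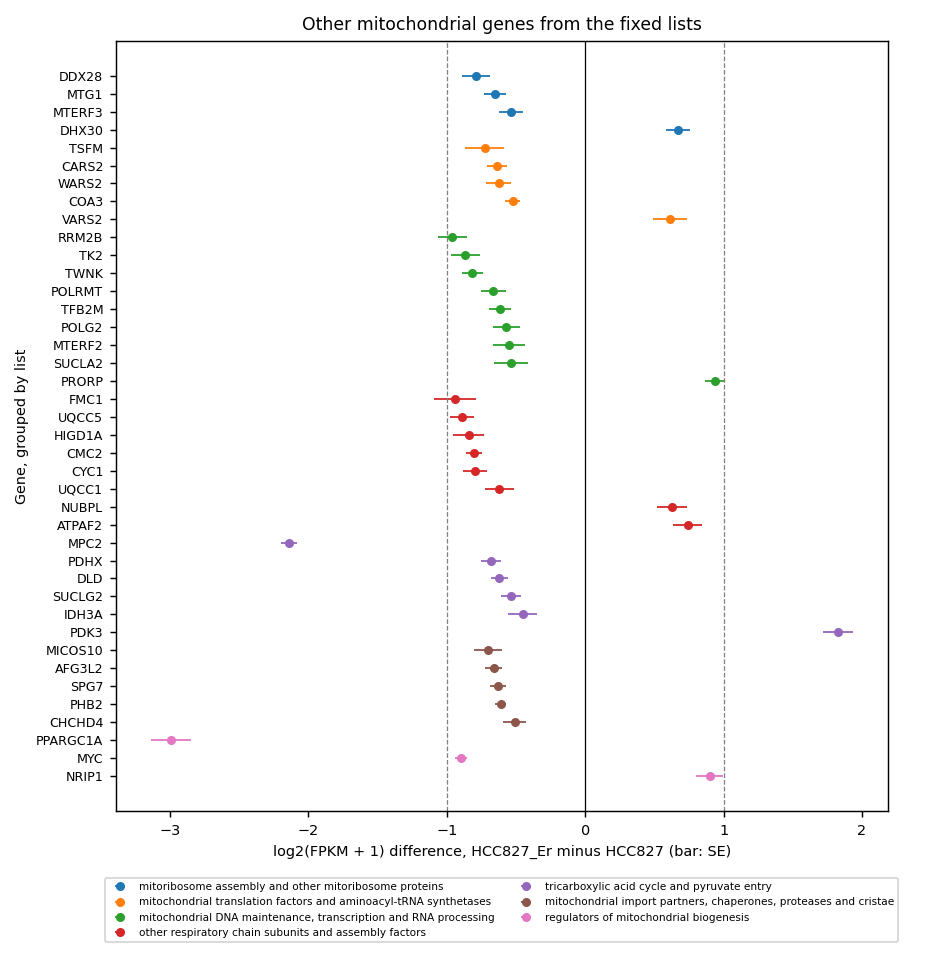
Difference in log2(FPKM + 1), HCC827_Er minus HCC827, for 40 of the 41 tested genes of the other mitochondrial lists, coloured by list, with bars for the SE and dashed lines at a 2-fold change. PPARGC1A and MPC2 lie beyond the left line and PDK3 beyond the right line.

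Listed genes of the cytosolic ribosome were set beside those of the mitochondrial ribosome, with no test of the difference. Of 8 such genes tested, 6 were higher in HCC827_Er and 2 lower, while 1 of 8 mitoribosomal genes of the set was higher and 7 were lower. Of all 5276 tested genes, 50.6% were higher and 47.7% lower at the adjusted p. RPL10 stood at 1725 ± 49.3 against 4668 ± 137 FPKM and RPS29 at 1320 ± 50.7 against 2777 ± 121 FPKM (SD, n = 3). RPL9 had the largest rise of the 8, from 62.7 ± 1.89 to 554 ± 6.67 FPKM. RPL23, the most abundant listed gene in HCC827, fell from 19025 ± 458 to 2995 ± 133 FPKM. The other lower gene, RPS27L, stood at 35.9 ± 4.66 against 13.2 ± 4.22 FPKM. Position was not described for these 8 genes, and its part in their direction was not tested. The medians were 0.88 for the cytosolic and -0.63 for the mitochondrial group, and the signs within both held under median-ratio and sum rescaling and quantile normalization. Reads of cytosolic ribosomal genes can be shared with their many processed copies.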

How the data were processed

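The authors deposited RNA-seq as 1 table of FPKM, with a row per gene and a column per library. The submitters' processing notes name fastp, HISAT2 and StringTie and the builds GRCh38.p14 and hg19, without versions or roles. Which annotation was used, and how the listed genes were selected, is not given in the sources used here. Symbols were matched by identifier for 6636 of 6641 genes, and types and positions came from GENCODE 29 on GRCh38, which held 6353 and need not be the authors' annotation. Values were transformed to log2(FPKM + 1), which understates changes at low levels. The 5276 genes that reached an FPKM of 1 in 3 or more libraries (1365 did not) were fitted with limma 3.58.1 in R 4.3.3 (line as only term, eBayes with trend, Benjamini-Hochberg over all tested genes) and called where the adjusted p was under 0.05 with a log2 difference of 1 or more in size. An exact test of 3 against 3 libraries cannot go below a two-sided p of 0.1. The steps were tested on simulated data. Symbols starting with SDHA to SDHD were read as prefixes. Members named with values were MT-RNR1, called members, the most abundant and the most different member of each role, and ATP5MC1 as an isoform gene; the others were named to account for the rest. The values of 1 member and of 1 list gene are not reported here, although both stay in every count and median; figures that label genes leave them out. From each list up to 3 called genes were to be named, or the most different; further list genes, overlapping genes, cytosolic ribosomal genes and the 5 Mb window were chosen after values were seen. The genes of the set and the lists were chosen with earlier results of these data known. Alternatives covered pseudocounts, filters, scaling, limma options, a replicate block and leaving out each library.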

Additional observations from a re-analysis of the deposited data

How the results depend on the processing

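The counts were most sensitive to scaling, the pseudocount and the minimum difference. As deposited, 1304 genes were called higher and 1041 lower, of which 1 and 3 belonged to the set. A pseudocount of 5 gave 579 and 506 genes, with 0 members higher. A minimum of 5 FPKM gave 867 higher. Median-ratio rescaling gave 896 genes higher and 1657 lower, 0 members higher and 12 lower, and a member median of -0.99. Sum rescaling gave 1825 and 794 genes, 2 members higher and 0 lower, and a median of -0.40. Quantile normalization gave 1159 and 1210 genes, 0 members lower and a median of -0.37, and COX6A1 changed sign to 0.068. Without a minimum difference 2672 genes were higher and 2515 lower, with 4 and 23 members. Leaving out each library in turn gave 1298 to 1334 genes higher, 1034 to 1056 lower, 0 to 1 members higher, 3 to 4 lower, and medians from -0.69 to -0.62. The member lost was TIMM8A, without HCC827_Er replicate 2 or 3, and the member gained was NDUFB9. The replicate block gave 1304 and 1041 genes and 1 and 3 members, and no call of the set changed; deviations of same-numbered libraries correlated with r of 0.11, -0.022 and 0.049, so the numbers were not taken to pair the libraries. Over single genes 525 comparisons with an alternative kept their call and direction, 24 gained a call, 10 lost it and 1 changed sign. Depth is unknown, so counting error cannot be given. The cause of these changes was not tested beyond the shift that a rescaling applies to every gene.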

Other observations

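Of the listed genes, MRPL45 and 4 further loci matched the symbol prefixes and were left out of the set by the rule. They enter no count or median of the set, and the genes beside them were not described. MRPL45, a protein of the large mitoribosomal subunit, was lower in HCC827_Er, at 61.3 ± 2.23 FPKM against 345 ± 7.90 FPKM (SD, n = 3; log2 difference -2.47, limma adjusted p = 1.54e-09). The other 4 are not protein-coding in GENCODE 29 or not in it, and all were higher in HCC827_Er without being called. The divergent transcripts COX10-DT, MRPL20-DT and NDUFV1-DT stood at 8.04 ± 0.675 against 13.0 ± 1.28 FPKM, at 1.05 ± 0.0569 against 2.41 ± 0.275 FPKM and at 2.22 ± 0.410 against 3.57 ± 0.531 FPKM. SDHAP4, a relative of SDHA, stood at 8.79 ± 0.967 against 15.6 ± 1.27 FPKM, opposite in direction to SDHA.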
